A study of Mus musculus with 4 samples.

Results

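In plaques of *ApoE-/-* and *Trf2T188A/ApoE-/-* mice, 65 of 2431 cells (2.67%) had the highest mean level over *Pln*, *Sncg*, *Notch3*, *Igfbp5*, *Epas1* and *Pcp4l1*, and are called the members here. The paper had limited the 2431 cells to clusters expressing the Confetti reporter described below. Shares of plaque cells therefore refer to that subset and not to whole plaques. Every plaque cell received a member score, the mean of log2(UMIs per 10000 + 1) over these 6 genes, where a UMI (unique molecular identifier) stands for 1 captured RNA molecule and levels were scaled to 10000 UMIs per cell. The members were chosen by that score as the 65 highest cells over both libraries, so the levels of the 6 genes describe the choice and are no finding. The ApoE-/- library held 42 members among 1502 cells (2.80%, 95% Clopper-Pearson interval 2.02 to 3.76) and the Trf2T188A/ApoE-/- library 23 among 929 (2.48%, 1.58 to 3.69), and these intervals overlap. The lowest member scored 1.5352 and the highest cell left out 1.5349, against a median of 0.561 over all plaque cells, so no gap separated the members from the rest. Within the members the score reached 3.75, and 13 cells lay at 2.5 or above.

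The mice were on a C57Bl/6 background, lacked *ApoE* in both groups, were given tamoxifen at 6 weeks of age to switch on the Confetti reporter through Myh11-CreERt2, and were fed a high fat diet for 14 weeks before plaques of the aortic root, the arch and the carotid arteries were dissected. Both groups carried Myh11-CreERt2/Confetti, in which males alone express the Cre. Sm22a-Trf2T188A adds a mutant TRF2, a telomere-binding protein, from a minimal *Sm22a* promoter that is active in vascular smooth muscle cells (VSMCs). Carotid arteries of wild type control and SM22a-TRF2T188A mice (C57Bl/6, called control and Trf2T188A), taken 28 days after ligation, gave the other 2 libraries, and their cells had no part in choosing the members. Each genotype of each experiment had 1 library, and the number of mice in it is not given in the sources used here, so no difference between genotypes can be told apart from a difference between libraries, and no test across animals was possible. All intervals below cover counting error only.

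Contractile VSMCs hold the arterial wall under tension with smooth muscle actin and myosin, and calcium release, nitric oxide and Notch signals from neighbouring cells set their tone and identity. *Pln* encodes phospholamban, the inhibitor of the sarcoplasmic reticulum calcium pump, *Notch3* the Notch receptor of arterial VSMCs and pericytes, and *Epas1* the hypoxia-inducible factor HIF2A. *Igfbp5* encodes a secreted binding protein of insulin-like growth factors, *Sncg* is gamma-synuclein, and *Pcp4l1* encodes a small protein related to the calmodulin regulator PCP4.

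The members carried a contractile programme. All 65 had UMIs of *Myh11*, *Acta2* and *Tagln*, and their contractile score, the mean of log2(UMIs per 10000 + 1) over *Myh11*, *Acta2*, *Cnn1*, *Tagln* and *Smtn*, ranged from 2.61 to 5.85 with a median of 4.90, above the median of 4.69 over all plaque cells. At or above that median lay 43 members, and 13 members lay within 0.1 of it. The 1173 other cells at or above it (790 ApoE-/- and 383 Trf2T188A/ApoE-/-) serve below as the other contractile cells, and since they were selected on a high contractile score, a somewhat lower level of those 5 genes in the members follows from the choice. Several defining markers of other cell types were absent, which follows in part from the paper's limit to clusters expressing Confetti. Of 9 endothelial markers *Cdh5*, *Kdr* and *Egfl7* had no UMI, *Ptprc* and *Adgre1* had none among 8 myeloid markers, of which 14 members held 17 UMIs in all, 6 of 8 cardiomyocyte markers had none, and no UMI was found of any of 4 T and B cell, 4 melanocyte, 3 adipocyte or 4 erythroid markers. The summed level of 7 fibroblast markers averaged 1.10 UMIs per 10000 in ApoE-/- and 1.28 in Trf2T188A/ApoE-/- members, against 1.22 and 1.78 in the other contractile cells, and 6 chondrocyte-like markers summed to 1.26 and 1.45 against 1.21 and 1.55. The 9 endothelial markers summed to 0.83 and 0.73 against 1.07 and 1.02, and 5 Schwann and neural markers to 5.45 and 5.53 against 8.12 and 8.43. The 8 myeloid markers summed to 0.15 and 0.11 against 0.07 and 0.21.

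**Figure D1:**
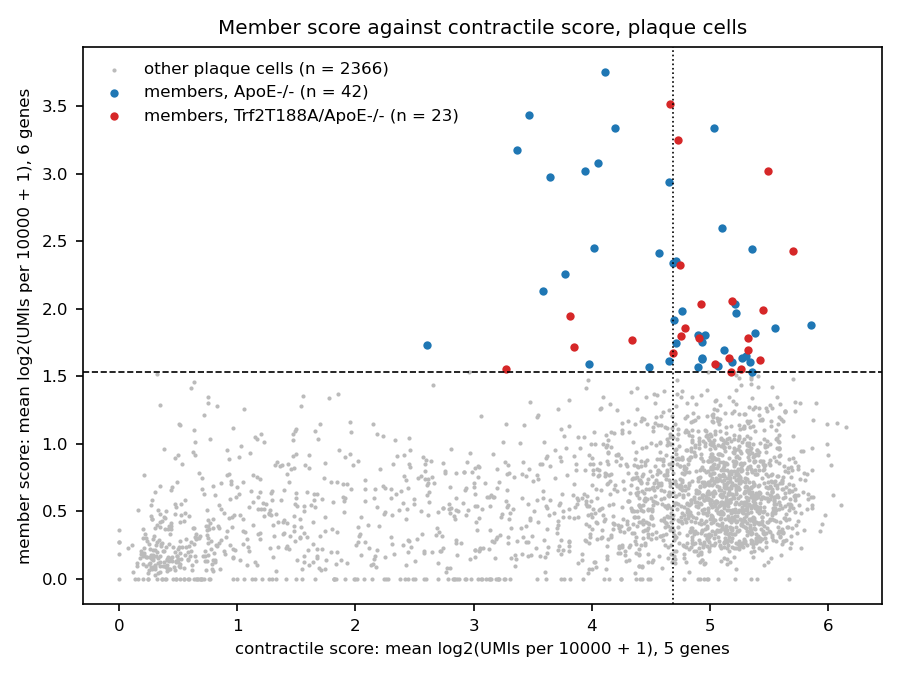
Member score against contractile score for each of 2431 plaque cells; colours mark members by library, the dashed line is the lowest member, and the dotted line the median contractile score. Members above 2.5 stand clear of the grey cells, those near 1.54 do not, and most lie at contractile scores above 4.

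The members were shallower than the cells they are compared with, with a median of 16492 UMIs per cell (range 3822 to 35555) against 23641 in the other contractile cells, and with medians of 4400 and 5175 detected genes. Scrublet, a doublet caller, called none of the 65 a doublet, but it called 3 of all plaque cells, so little can be read from it, and the highest doublet score in a member was 0.13. A Confetti reporter UMI was present in 55 members (84.6%, interval 73.5 to 92.4), in 91.9% of the other contractile cells (90.2 to 93.4) and in 84.2% of all other plaque cells. Their clusters had been kept for Confetti expression, so high shares follow in part from that choice. The plaque libraries shared no cell barcode.

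Over single cells the 6 score genes were not present in equal measure. In ApoE-/- members *Pln* had a lowest, median and highest level of 0, 2.99 and 18.3 UMIs per 10000, with a mean of 3.87, and in Trf2T188A/ApoE-/- members 0, 0.72 and 11.04, with a mean of 2.60. *Notch3* ranged from 0 over a median of 1.65 to 21.6 in ApoE-/- members and from 0 over 1.95 to 15.4 in Trf2T188A/ApoE-/- members. Both genes had a mean of 0.21 to 0.23 in the other contractile cells of either library. *Sncg* was the gene with a UMI in every member, at medians of 11.7 and 11.5 (lowest 1.62 and 0.61, highest 30.6 and 35.3) against 0.77 and 0.84. *Igfbp5* averaged 4.95 and 6.52 against 0.58 and 0.42, *Epas1* 4.35 and 2.43 against 0.82 and 0.80, and *Pcp4l1* 4.45 and 3.44 against 1.63 and 1.61. UMIs of all 6 genes were found in 28 members, of 5 in 30 and of 4 in 7, whereas 23 of the 1173 other contractile cells held all 6. Member and non-member levels of every score gene overlapped.

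**Figure D2:**
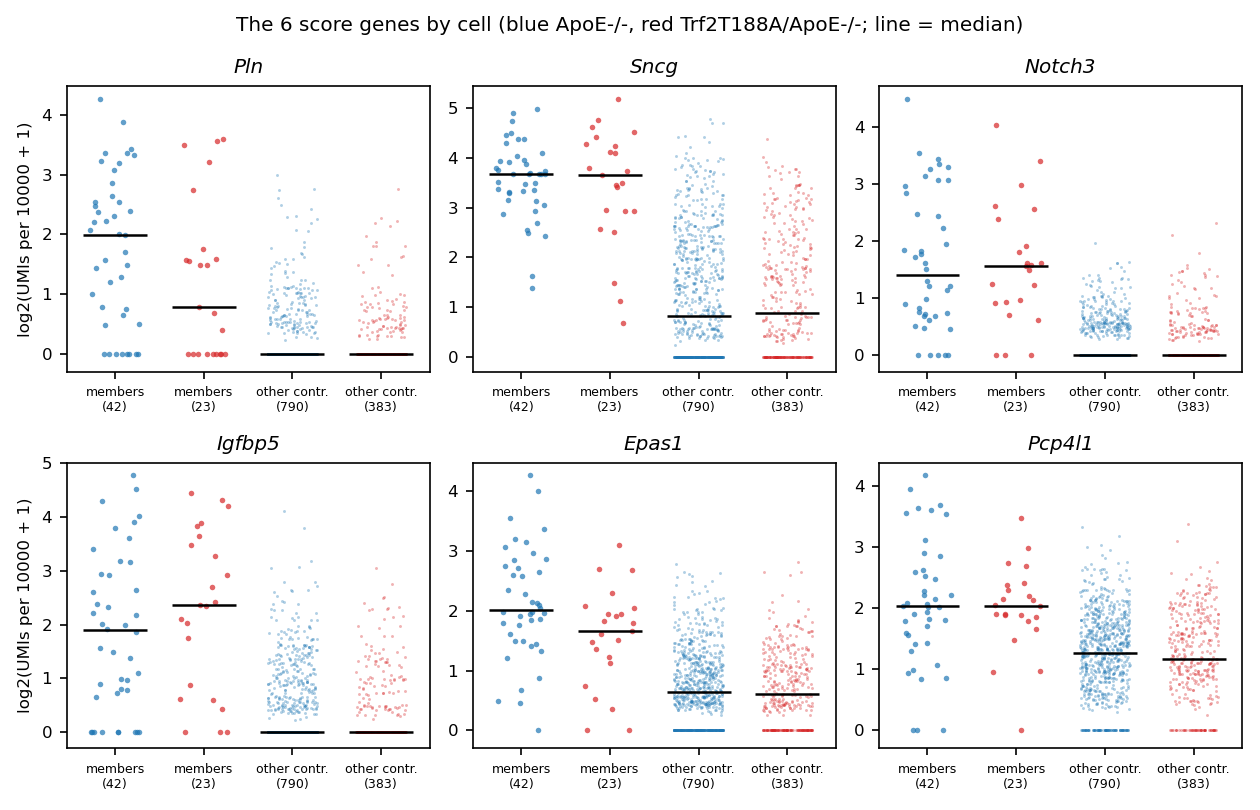
Each point is 1 cell, as log2(UMIs per 10000 + 1) of a score gene, in members and other contractile cells of each library, with the number of cells in brackets and a line at the median. *Sncg* medians are high in the members of both libraries, while 8 and 9 members lack a *Pln* UMI.

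A score gene can be described in cells it did not help to choose by leaving it out of the score and taking the 65 highest cells for the other 5 genes. Such cells kept 47 to 59 of the 65 members, fewest without *Sncg* and most without *Epas1*. *Pln* then averaged 2.91 UMIs per 10000 against 0.27 in the other contractile cells of the ApoE-/- library (log2 ratio 1.63, counting interval 1.43 to 1.82) and 2.33 against 0.24 in the Trf2T188A/ApoE-/- library (1.42, 1.19 to 1.66). For *Notch3* the log2 ratios were 1.66 and 1.45, for *Sncg* 1.48 and 1.56, and for *Igfbp5* 1.62 and 1.29. The smallest were those of *Epas1*, 1.46 and 0.75, and *Pcp4l1*, 0.89 and 0.51. *Pcp4l1* had UMIs in fewer of the cells so chosen (79.1% and 77.3%) than of the other contractile cells (89.2% and 86.6%). The 6 genes were put together with earlier results of these cells known, so these values restate that choice and are no support for it.

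Across the remaining 10404 genes with a UMI in at least 10% of the members or of the other contractile cells, 65 (0.625%) were higher in the members and 60 (0.577%) lower, by a log2 ratio of at least 0.5 in each library (pseudocount 1 UMI per 10000). Against all other plaque cells the counts were 71 of 10624 (0.668%) and 107 (1.01%). The same cells fix the members and these ratios, so the counts are a description. The highest were *Hspa1b*, *Hspa1a*, *Palld*, *Crip1*, *Gng11*, *Sparcl1*, *C1s1*, *Fabp4*, *Mustn1*, *Igfbp4*, *Zfp36* and *Gadd45g*, and the lowest *Mfap4*, *Ptprz1*, *Mfap5*, *Rbp4*, *Nupr1*, *Fmo2*, *Postn* and *Tafa1*. With the highest member cell of each library left out of every gene's mean, which by construction lowers each ratio, 35 of the 65 genes were still called higher, and with the 43 members at or above the contractile median alone 38 genes were, 35 of them among the 65.

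**Figure D3:**
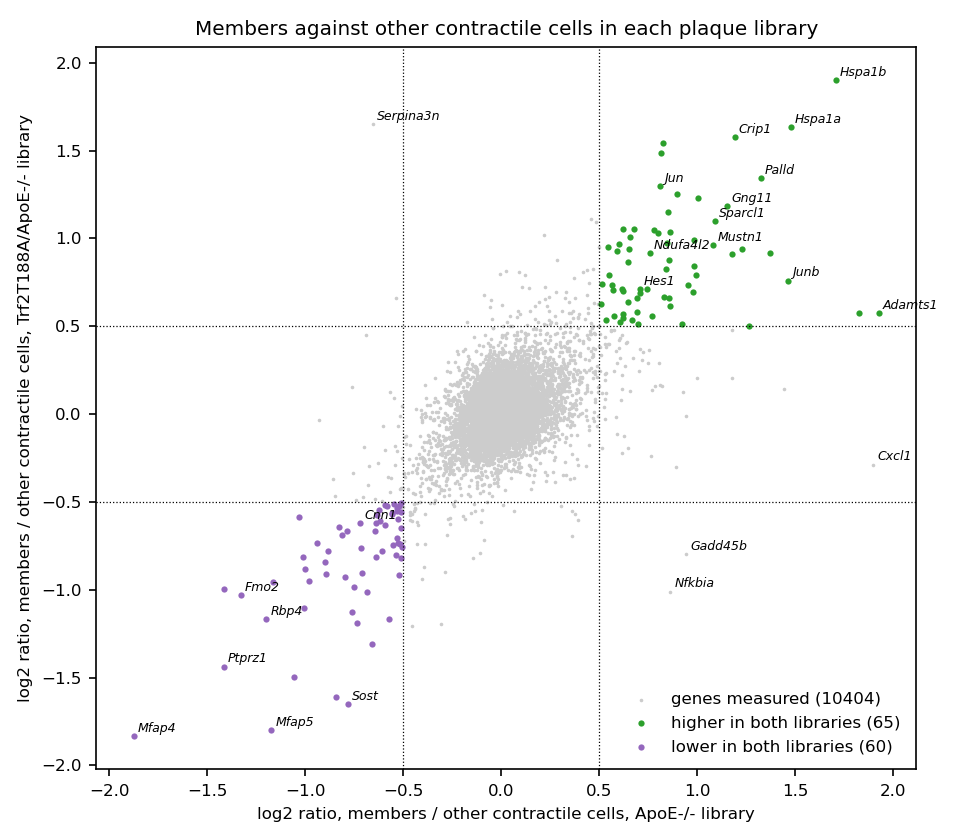
The log2 ratio of members to other contractile cells for 10404 genes, with the ApoE-/- library on the x axis and the Trf2T188A/ApoE-/- library on the y axis; dotted lines mark 0.5 and -0.5. *Palld*, *Crip1* and *Sparcl1* lie at similar heights on both axes, and *Mfap4* and *Ptprz1* far below 0 on both, whereas *Cxcl1*, *Gadd45b*, *Nfkbia* and *Serpina3n* differ between the axes.

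*Palld* encodes the actin-bundling protein palladin. It had a lowest, median and highest level of 0, 3.09 and 21.4 UMIs per 10000 in ApoE-/- members and 0, 2.75 and 16.3 in Trf2T188A/ApoE-/- members, and the means of 4.37 and 4.61 stood against 1.14 and 1.21 in the other contractile cells (log2 ratios 1.33, interval 1.17 to 1.48, and 1.34, 1.17 to 1.52). *Crip1*, a LIM-domain protein gene, ranged from 1.98 over 46.4 to 96.7 and from 7.17 over 51.4 to 117, with log2 ratios of 1.19 and 1.58. *Sparcl1*, a matrix-associated glycoprotein, had medians of 11.8 and 6.88 and means of 16.01 and 15.9 against 6.99 and 6.89. These 3 genes kept log2 ratios of at least 0.87 in both libraries without the highest member. *Gng11*, a G protein gamma subunit, averaged 2.41 and 2.59 against 0.54 and 0.58, *C1s1*, a complement protease, 2.08 and 2.75 against 0.53 and 0.60, and *Mustn1*, a small musculoskeletal nuclear protein, 15.4 and 15.3 against 6.75 and 7.37. *Fabp4*, a fatty acid carrier of adipocytes and microvascular endothelium, averaged 5.84 in ApoE-/- members, where 1 cell held 42.7% of the sum, and its log2 ratio went from 0.98 to 0.35 without that cell.

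The heat shock genes *Hspa1b* and *Hspa1a* headed the list, at means of 7.67 and 11.8 UMIs per 10000 in ApoE-/- members and 11.4 and 14.9 in Trf2T188A/ApoE-/- members, against 1.65 to 4.12 in the other contractile cells. Their medians were lower, 2.11 and 6.29 in ApoE-/- and 2.74 and 4.73 in Trf2T188A/ApoE-/- members. In the Trf2T188A/ApoE-/- library 1 cell of 10154 UMIs held 62.9% of the *Hspa1b* and 55.9% of the *Hspa1a* sum, and also the highest *Zfp36*, *Gadd45g* and *Jun* levels. Without the highest member the log2 ratios of *Hspa1b* were 1.43 and 0.71 and those of *Hspa1a* 1.37 and 0.62, still above 0.5. The Trf2T188A/ApoE-/- members then averaged 4.41 of *Hspa1b* and 6.85 of *Hspa1a*. Non-members of that library below the contractile median averaged 4.14 and 7.12, so the members were not set apart from these. In the ApoE-/- library such non-members averaged 3.25 and 5.61. *Gadd45g* had 1.06 and 0.20. The other 14 genes of the heat shock list were not called. *Hspa1a* and *Hspa1b* are near-identical neighbours on chromosome 17 whose reads can be assigned to either, so their separate levels are uncertain. Their upstream sequences, shown because the pair moved together, were identical at 247 of 250 bases. They are the 250 bases before the RefSeq start (GRCm38.p6), with the one GAANNTTC match, the letters of a heat shock element, in capitals.
Hspa1a, chr17:34972157-34972406, minus strand: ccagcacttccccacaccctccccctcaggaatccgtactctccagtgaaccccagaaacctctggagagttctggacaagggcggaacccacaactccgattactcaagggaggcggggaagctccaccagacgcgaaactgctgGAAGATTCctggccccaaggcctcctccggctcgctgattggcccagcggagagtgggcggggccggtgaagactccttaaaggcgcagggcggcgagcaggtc
Hspa1b, chr17:34959239-34959488, minus strand: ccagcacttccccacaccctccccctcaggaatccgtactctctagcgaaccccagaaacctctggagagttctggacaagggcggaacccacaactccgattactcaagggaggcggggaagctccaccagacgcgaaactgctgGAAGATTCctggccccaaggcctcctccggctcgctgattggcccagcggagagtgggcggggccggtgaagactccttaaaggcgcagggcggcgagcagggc
GAANNTTC, which reads the same on both strands and here begins 104 bases before the start in each, occurred in 6.69% of 32851 promoters of this length, and in 5 (7.46%) of the 67 promoters of the 46 genes higher in members that have an entry. A match is a description of letters and not a binding site.

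Immediate early genes, the transcription factors and feedback regulators that cells switch on within minutes of a stimulus, were higher in part. Of 21 measured, 6 were called higher (*Jun*, *Junb*, *Jund*, *Zfp36*, *Btg2* and *Klf2*) and none lower, 13 were above 0 in both libraries, and the median log2 ratio was 0.49, against 0.01 over all genes. For this and the later lists the share of all genes on the same side of 0 is not given, so such counts only describe. *Jun* had medians of 19.2 and 16.2 UMIs per 10000 and means of 22.8 and 29.9, against means of 12.6 and 11.6 in the other contractile cells. *Junb* averaged 25.7 against 8.66 in the ApoE-/- library and 15.1 against 8.50 in the Trf2T188A/ApoE-/- library. Without the highest member of each library *Jun* and *Btg2* alone kept their call, since in the Trf2T188A/ApoE-/- library *Junb* then had 0.40, *Jund* 0.35, *Zfp36* 0.29 and *Klf2* 0.19. The summed level of the 22 listed genes averaged 212 and 156 in the members against 112 and 111. Its median was 189 against 99.4 in the ApoE-/- library but 103 against 91.8 in the Trf2T188A/ApoE-/- library, so the levels there rested more on a few cells. All other plaque cells averaged 129 and 145, at medians of 103 and 108. The median of the Trf2T188A/ApoE-/- members was thus not above that of all other cells. Against all other plaque cells 3 genes of the list were called higher.

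The contractile apparatus differed little. Of 26 genes *Palld* alone was called higher and *Cnn1*, calponin, alone lower, while 18 were below 0 in both libraries, with a median log2 ratio of -0.14. *Cnn1* averaged 8.39 and 9.20 against 14.5 and 14.7 (log2 ratios -0.72 and -0.62), *Acta2* 136 and 143 against 174 and 189 (-0.35 and -0.39) and *Myh11* 37.7 and 39.0 against 42.4 and 39.7 (-0.17 and -0.03). Since *Cnn1*, *Acta2* and *Myh11* chose the cells of comparison, their direction follows in part from that choice. Beside *Pln*, none of 27 measured genes of calcium handling and ion channels was called in either direction, with a median of 0.14. Among 25 genes of nitric oxide and cyclic nucleotide signalling 3 were higher and 1 lower. *Prkg1*, the cGMP-dependent kinase that relaxes smooth muscle, had medians of 9.32 and 8.94 and means of 11.7 and 11.5 against 6.04 and 5.82 (log2 ratios 0.86, interval 0.75 to 0.96, and 0.88, 0.74 to 1.01). *Pde1a*, a phosphodiesterase, averaged 1.51 and 2.24 against 0.59 and 0.61, and *Ednra*, the endothelin receptor that mediates constriction, 0.56 and 1.08 against 0.07 and 0.08. *Npr1*, the natriuretic peptide receptor, averaged 0.59 and 0.61 against 1.26 and 1.37. The potassium channel gene *Kcnk3*, which was in no list, was higher at log2 ratios of 0.55 and 0.79. *Ednra* and *Kcnk3* fell just under the threshold without the highest member of the ApoE-/- library, at 0.49 and 0.48.

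Of 19 measured Notch genes other than *Notch3*, 3 were called higher, none lower, and 12 were above 0 in both libraries, though the median log2 ratio was 0.08. The ligand gene *Jag1* averaged 1.02 and 1.14 UMIs per 10000 against 0.42 and 0.38 (log2 ratios 0.51, interval 0.32 to 0.70, and 0.63, 0.40 to 0.86). *Hes1*, a transcriptional target, had a lowest, median and highest level of 0, 2.499 and 12.4 in ApoE-/- and 0, 2.36 and 18.7 in Trf2T188A/ApoE-/- members, and averaged 3.62 and 3.40 against 1.83 and 1.69 (0.71 in both). The phosphatase gene *Ptp4a3* had log2 ratios of 0.86 and 1.04. The targets *Heyl* (0.35 and 0.64) and *Hey2* (0.47 and 0.46) missed the threshold in 1 or both libraries. The summed level of the listed genes without *Notch3* averaged 16.9 and 17.4 against 11.5 and 10.9, with medians closer together, at 13.95 and 14.3 against 10.9 and 10.3. Without the highest member of each library *Ptp4a3* alone kept its call, as *Jag1* had 0.46 in the ApoE-/- and *Hes1* 0.46 in the Trf2T188A/ApoE-/- library.

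Of 20 measured HIF pathway genes other than *Epas1*, *Ndrg1* and *Ndufa4l2* were called higher, with a median log2 ratio of 0.02 over the list. *Ndrg1*, a hypoxia-responsive gene, averaged 1.52 and 1.67 UMIs per 10000, at log2 ratios of 0.52 and 0.74, the first of which was 0.41 without 1 cell. The letters ACGTG, the core of hypoxia response elements, occurred upstream of *Pln* and *Notch3*, the leading genes of the score, and these upstream bases are printed for that reason, with ACGTG or its reverse complement in capitals.
Pln, chr10:53337436-53337685, plus strand: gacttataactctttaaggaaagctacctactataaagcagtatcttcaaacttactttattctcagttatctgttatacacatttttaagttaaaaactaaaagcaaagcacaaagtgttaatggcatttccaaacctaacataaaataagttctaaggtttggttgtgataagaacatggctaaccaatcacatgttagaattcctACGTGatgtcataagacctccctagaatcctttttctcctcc
Notch3, chr17:32166891-32167140, minus strand: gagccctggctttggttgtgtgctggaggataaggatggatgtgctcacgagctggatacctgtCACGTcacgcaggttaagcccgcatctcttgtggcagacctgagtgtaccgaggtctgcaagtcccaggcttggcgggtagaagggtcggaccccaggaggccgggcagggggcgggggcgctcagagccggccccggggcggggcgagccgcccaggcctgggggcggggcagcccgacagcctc
ACGTG occurred in 16.6% of the 32851 promoters, in 9 (13.4%) of the 67 promoters of genes higher in members, and upstream of 2 of the 5 score genes with an entry. TGGGAA, the core letters bound by the Notch partner RBPJ, occurred in 21.6% of all promoters, in 15 (22.4%) of the 67, and in none of the 5 score genes.

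Microvascular mural genes, which mark pericytes and arteriolar VSMCs, included a few that were detected mainly in members among contractile cells. Of 17 measured, *Ndufa4l2*, *Gja4* and *Ebf1* were higher and *Postn* lower, with a median log2 ratio of 0.27, while the summed level of the list was 30.9 and 35.3 in the members against 31.2 and 33.6. *Ndufa4l2*, a mitochondrial protein gene typical of pericytes, had UMIs in 12 of 42 ApoE-/- members (28.6%) and 5 of 23 Trf2T188A/ApoE-/- members (21.7%), against 5 of 790 (0.63%) and 6 of 383 (1.57%) of the deeper other contractile cells. Among non-members below the contractile median 75 (11.2%) and 56 (10.7%) held it, so it was not particular to the members. Its log2 ratio in the Trf2T188A/ApoE-/- library went from 0.91 to 0.50, just under the threshold, without 1 cell. *Gja4*, the gap junction gene of connexin 37, averaged 0.87 and 0.69 UMIs per 10000 against 0.05 and 0.06. *Ebf1*, a transcription factor of mural cells, averaged 6.098 and 7.56, at log2 ratios of 0.62 and 1.05. The pericyte marker *Higd1b* had UMIs in 7 members and in 0 of 1173 other contractile cells, which allows a share of cells with a UMI, not of cells expressing it, of up to 0.47% in the ApoE-/- and 0.96% in the Trf2T188A/ApoE-/- cells (Clopper-Pearson). It was also found in 2 non-members below the contractile median. In the 22 members below that median *Ndufa4l2* averaged 1.75, *Higd1b* 0.95, *Gja4* 1.11 and *Rgs5* 12.5. The 43 at or above it averaged 0.27, 0.05, 0.65 and 0.51, while *Cspg4* was alike (3.37 and 3.35). The other contractile cells all lay at or above it, so membership and contractile level were not separated here. *Rgs5*, the most used pericyte marker, was uneven, with a median of 0 in the members of both libraries and 1 cell holding 43.4% of the ApoE-/- and 89.0% of the Trf2T188A/ApoE-/- sum. No name was therefore given to the members beyond contractile cells that carry the score genes.

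*Nrip2*, which encodes a nuclear receptor-interacting protein and was chosen for a closer view after its values were seen, was nearly limited to the members. Of 20 plaque cells with a *Nrip2* UMI 15 were members, 8 of 11 in the ApoE-/- and 7 of 9 in the Trf2T188A/ApoE-/- library, and of 11 cells with UMIs of both *Nrip2* and *Ndufa4l2* 9 were. UMIs of either gene were found in 23 members. These 23 averaged 1.73 UMIs per 10000 of *Gja4* against 0.30 in the other 42 members, 1.62 of the olfactory receptor gene *Olfr558* against 0.03, and 6.15 of the score gene *Notch3* against 1.73. *Acta2* differed in opposite directions, at 107 with either gene against 150 without in ApoE-/- and 186 against 116 in Trf2T188A/ApoE-/- members. *Palld* was higher with either gene in both libraries, at 7.16 against 2.98 and 8.48 against 2.13, and *Myh11* averaged 38.1 against 37.5 and 46.3 against 34.2. They had less *Sost*, the Wnt inhibitor sclerostin, at 0.75 against 5.71, and less *Fmo2*, a flavin monooxygenase, at 1.41 against 7.57, and both directions were the same within each library. For *Fmo2* the averages were 2.31 against 6.39 in ApoE-/- and 0 against 9.95 in Trf2T188A/ApoE-/- members. The median member score was 2.43 with either gene and 1.77 without. Members with either gene were shallower in the ApoE-/- library (median 11957 against 17617 UMIs) but not in the Trf2T188A/ApoE-/- library (18358 against 16516.5).

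**Figure D4:**
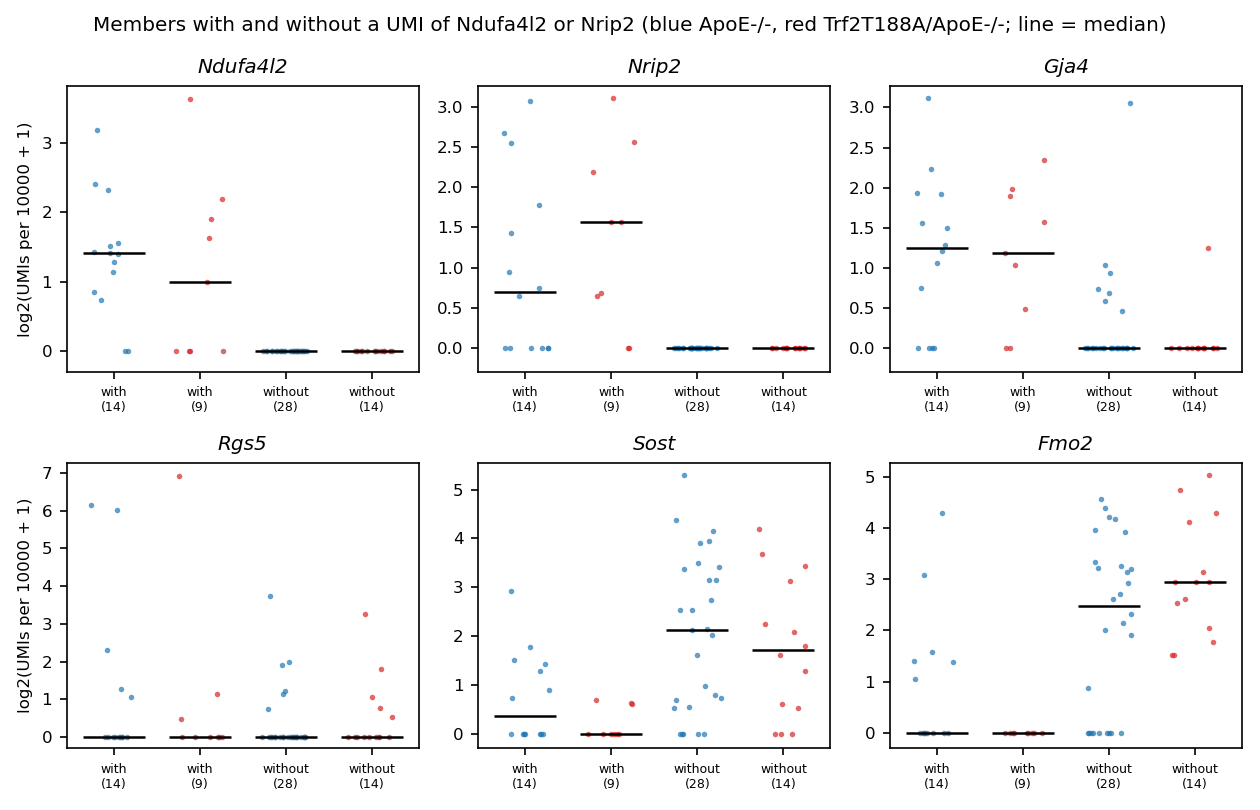
Each point is 1 member, as log2(UMIs per 10000 + 1), split by library and by whether it held a UMI of *Ndufa4l2* or *Nrip2*, with cell numbers in brackets and lines at medians. *Gja4* is mostly above 0 in the 23 members with either gene, *Sost* and *Fmo2* mostly above 0 in the 42 without, and *Rgs5* rests on a few cells; the 2 splitting genes are 0 in the 42 by construction.

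The levels of several genes outside the score also varied with it. Among the 13 members with a score of at least 2.5, a value set after the scores were seen, 11 had a UMI of *Ndufa4l2* or *Nrip2*, and all 13 lay in the cluster that held most members. Of 12 members from 2.0 to 2.5 4 had one of the pair, and of 40 below 2.0 8 had. *Hes1* averaged 6.35, 3.76 and 2.57 UMIs per 10000 in these 3 ranges of the score, *Palld* 9.77, 4.39 and 2.75, and *Gja4* 2.23, 0.55 and 0.42. The highest range held 10 ApoE-/- but 3 Trf2T188A/ApoE-/- members, with *Hes1* at 5.45 and 9.35. The order of the ranges was the same within each library for these 3 genes. *Mfap4* ran the other way, at 0.05, 0.62 and 1.38, and so did *Ptprz1*, at 0, 0.09 and 0.46, and *Cnn1*, at 4.34, 7.28 and 10.5. The Notch target *Heyl* did not follow the score, at 1.01, 1.97 and 1.56. Of these 13 members 4 lay at or above the contractile median, and their median depth was 10745 UMIs.

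Clustering of all plaque cells with the 6 score genes left out gave 12 clusters, and cluster 1 of 397 cells held 54 of the 65 members (83.1%), 36 ApoE-/- and 18 Trf2T188A/ApoE-/-. Members made up 13.6% of it, and *Sparcl1*, *Crip1*, *Tppp3*, *Fabp4* and *Ckb* led it. High *Sparcl1*, *Crip1* and *Fabp4* therefore marked that cluster and not the members alone. Against the other cells of cluster 1, 45 genes were higher in the members, 39 of them among the 65. The 11 members outside it averaged 17.2 UMIs per 10000 of *Lum* against 0.79 in the 54, 16.9 of *Col1a1* against 3.01, and 5.16 of *Sparcl1* against 18.2. *Lum*, a matrix proteoglycan gene, was called higher in the members (log2 ratios 0.82 and 1.49), but 1 ApoE-/- cell held 59.0% of the sum of that library and the ratio there was 0.05 without it.

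Among the genes lower in the members were some of the extracellular matrix. Of 17 measured elastic fibre genes *Mfap4* and *Mfap5*, microfibril proteins, were called lower, none was higher, and 13 were below 0 in both libraries, with a median log2 ratio of -0.19. *Mfap4* had a median of 0 in the members of both libraries and averaged 0.89 and 1.13 UMIs per 10000 against 5.92 and 6.59 (log2 ratios -1.88, interval -2.03 to -1.72, and -1.83, -2.03 to -1.64). *Mfap5* averaged 0.90 and 0.28 against 3.29 and 3.46. *Ptprz1*, a receptor tyrosine phosphatase, averaged 0.28 and 0.33 against 2.43 and 2.60, *Rbp4*, the retinol carrier, 0.86 and 0.94 against 3.27 and 3.35, and *Postn*, the matrix protein periostin, 4.21 and 4.71 against 9.48 and 11.3. The stress-response regulator *Nupr1* averaged 4.61 and 3.80 against 10.7 and 12.5, and *Tafa1*, a secreted peptide gene, had a UMI in 1 and 2 members.

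A list of 11 genes marking other contractile plaque cells, which was drawn from these cells and is no independent evidence, had *Sparcl1* higher and *Sost*, *Csrp2*, *Ptprz1*, *Rbp4* and *Wnt16* lower. *Csrp2*, a LIM protein gene, averaged 16.7 and 14.3 UMIs per 10000 at log2 ratios of -0.73 and -1.19. Equal numbers of cells taken by the mean of *Sparcl1* and *Sost*, of *Rgs5* and *Csrp2*, and of *Gstm1* and *Ogn* shared 3, 0 and 4 cells with the members. *Gstm1* (log2 ratios -0.01 and -0.13) and *Ogn* (0.07 and 0.38) did not mark them in either direction.

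Of 25 measured positional transcription factor genes *Tbx2* and *Nr2f2* were called higher. *Nr2f2*, a nuclear receptor gene best known from venous identity, averaged 2.26 and 1.997 against 0.95 and 0.83, with UMIs in 36 of 42 and 19 of 23 members, and *Tbx2* 0.65 and 0.55 against 0.07 and 0.06. Without 1 Trf2T188A/ApoE-/- member the log2 ratio of *Tbx2* there was 0.43. One gene was higher in each of the lists for the insulin-like growth factor axis (*Igfbp4*, of 8 measured), the basement membrane (*Tinagl1*, of 19) and the TGFb and BMP pathway (*Id1*, of 25, where *Bmpr1b* was lower). *Id1* had 0.39 in the Trf2T188A/ApoE-/- library without 1 cell. Of 7 measured de-differentiation genes *Lum* was higher and *Fn1* lower. No gene was called among 9 senescence, 7 shelterin, 7 chondrocyte-like, 9 interferon-stimulated and 3 cell cycle genes, nor was the 1 measured gene of the synuclein and Pcp4 families outside the score. *Cdkn2a*, which encodes the senescence marker p16, had no UMI in any member. The other contractile cells had hardly any either (log2 ratios -0.009 and -0.003), so this does not set the members apart. *Terf2*, which encodes TRF2, averaged 0.21 in ApoE-/- and 0.15 in Trf2T188A/ApoE-/- members, with 17 and 6 UMIs. These are few, and whether reads of the transgene are counted as *Terf2* was not tested, so they do not show whether it was expressed. *Apoe* had 2 UMIs and 0 UMIs.

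Between the genotypes, 45 of 10172 genes (0.442%) were higher in Trf2T188A/ApoE-/- members by a log2 ratio of at least 0.5 and 68 (0.669%) lower. The other contractile cells had 0 of 10309 (0%) higher and 6 (0.0582%) lower, but they number 790 and 383 cells against 42 and 23 members, so the counts cannot be compared directly. Immediate early genes were lower in Trf2T188A/ApoE-/- members, with 10 of 22 past the threshold, none higher and a median of -0.47, against 0.01 over all genes. *Atf3* had medians of 5.71 and 2.66 UMIs per 10000 and means of 9.36 and 4.09 (log2 ratio -1.02, counting interval -1.24 to -0.80), and *Egr1* means of 18.4 and 9.64 (-0.87, -1.03 to -0.71), while the ranges of both genes overlapped. *Jun* went the other way, at 0.38, where 1 cell held 24.9% of the Trf2T188A/ApoE-/- sum. Without the highest member of each library its means were close, at 21.8 and 23.5. In the other contractile cells *Atf3* and *Egr1* had log2 ratios of -0.03 and -0.17.

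The genes with the lowest ratios were *Cxcl1*, a neutrophil chemokine, *Gadd45b*, a stress-induced signalling gene, *Nfkbia*, the NF-kB inhibitor, and *Adamts1*, a matrix protease. *Gadd45b* had a lowest, median and highest level of 0, 8.87 and 83.6 in ApoE-/- and 0, 2.06 and 25.6 in Trf2T188A/ApoE-/- members (log2 ratio -1.84, interval -2.09 to -1.60). *Nfkbia* had medians of 5.65 and 1.18 (-1.66) and *Adamts1* of 3.33 and 1.18 (-1.51). *Cxcl1* (-2.30) had a median of 0 in both, with UMIs in 16 of 42 and 6 of 23 members. Without the highest member of each library the 4 ratios lay between -2.07 and -1.55. In the other contractile cells they lay between -0.15 and 0.21, but the libraries and the genotypes cannot be told apart.

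The genes with the highest ratios rested on fewer cells. *Serpina3n*, an acute-phase protease inhibitor, averaged 0.20 and 4.32 (log2 ratio 2.15) with UMIs in 5 of 42 and 6 of 23 members, and 1 cell held 53.6% of the Trf2T188A/ApoE-/- sum. *Col1a1* averaged 2.89 and 9.86 (1.48), where 1 cell held 55.8%, and its ratio without the highest members was 0.58. *Col3a1*, with medians of 6.04 and 11.2, had 1.34 and 0.99 without them, and *Ifi27l2a*, an interferon-stimulated gene, 1.22 and 0.41. Of 45 genes called higher 16 remained so without the highest members. The contractile genes differed little, with log2 ratios of 0.08 for *Acta2*, 0.12 for *Tagln* and 0.04 for *Myh11*. Of 25 TGFb and BMP genes *Smad7*, *Id2* and *Id3* were lower, with a median of -0.21, and *Gucy1a1*, the soluble guanylate cyclase subunit, was higher at 0.59. No Notch, HIF, contractile apparatus or shelterin gene outside the score passed the threshold between genotypes.

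Ligated arteries allowed a look in libraries that did not choose the members. Among 5180 ligated-artery cells at or above the median contractile score, the same share with the highest member score was taken, 139 cells (63 control and 76 Trf2T188A), down to a score of 1.31. The 6 score genes picked these cells, so their higher levels there follow from the choice and are no finding. *Pln* had means of 3.24 and 2.81 UMIs per 10000 against 0.47 and 0.44, and *Sncg* 6.09 and 7.30 against 1.75 and 1.93. *Notch3* reached 0.89 and 0.47 against 0.30 and 0.28 (log2 ratios 0.54 and 0.20). Of 8286 genes 1 (0.0121%) was higher and 3 (0.0362%) were lower in both ligation libraries. None of the 65 genes higher in plaque members, 59 of which were measured, was higher there, and 29 were above 0 in both. *Palld* had log2 ratios of -0.14 and -0.45, *Crip1* -0.13 and 0.18, *Hes1* 0.14 and 0.03, and *Sparcl1* 0.10 and 0.39. Of the 60 lower genes, 58 of which were measured, *Mfap5* alone was lower (-0.54 and -0.65), and 33 were below 0 in both. The share of all measured genes on the same side of 0 is not given, so neither sign count is read as agreement. Elastic fibre genes were lower there in part. *Eln*, among the 3 lower genes, had -0.60 and -1.19 and *Fbln5* -0.32 and -0.71, while *Mfap4* had -0.33 and -0.001 and *Efemp2* -0.01 and 0.09. With 1 of 8286 genes called higher at all, 0 of 59 lies near the share over all genes and says little about the members. The high-score ligated-artery cells had a median of 9894 UMIs. They were taken at or above the contractile median, whereas 22 plaque members lay below theirs. Whether the 2 sets are comparable cells was not tested.

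**Figure D5:**
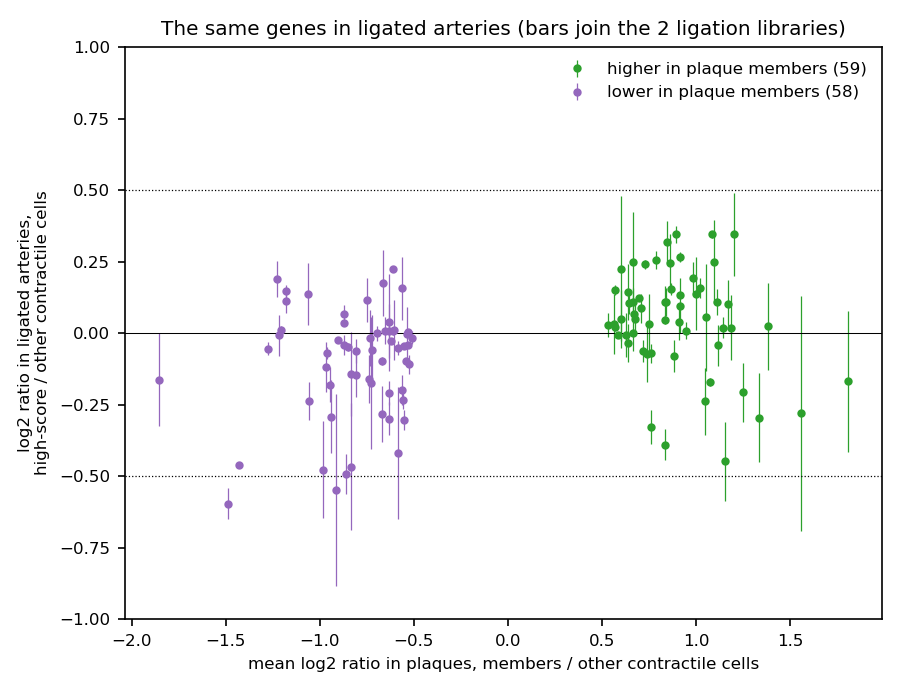
For the genes called in plaque members, the mean log2 ratio in plaques (x axis) against the log2 ratio of high-score to other contractile cells in ligated arteries (y axis); points are means of the 2 ligation libraries, bars reach the value of each, and dotted lines mark 0.5 and -0.5. The 59 higher genes spread around 0 on the y axis, with means below 0.5.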

How the data were processed

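Single-cell RNA was measured in 2 plaque and 2 ligated-artery libraries, 1 per genotype. The authors aligned reads to GRCm38 (per the labels, Cell Ranger 7.0.0 for plaques and 6.1.2 for ligated arteries), filtered cells, and deposited a signal per gene and cell, UMIs scaled to a sum of 10000 in every cell. Per the paper, plaque cells were limited to clusters expressing Confetti markers, and the minimum of detected genes was lower for Trf2T188A/ApoE-/- cells. The fewest genes in a cell were 1531 in the ApoE-/- and 1056 in the Trf2T188A/ApoE-/- library. Each cell summed to 10000 and 100% of values were whole multiples of 1 UMI (tolerance 0.01), so UMI counts were recovered from the deposited signal. Plaque libraries held 37869934 and 24064570 UMIs, at medians of 22765.5 and 24377 per cell, and ligation libraries 47713453 and 67426588.

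Members and gene lists were chosen with earlier results of these data known. Genes were called at a log2 ratio of mean UMIs per 10000 (pseudocount 1) of 0.5 or more, or -0.5 or less, in both libraries (between genotypes, over the members), if at least 10% of cells of either group had a UMI. Named genes were the 6 score genes, the 12 highest and 8 lowest by the weaker library, the 4 highest and 4 lowest between genotypes, *Apoe*, *Terf2* and members of the lists. *Nrip2*, *Olfr558* and *Kcnk3* were named after their values were seen. With 1 library per genotype no test was run. Intervals are 95%, by the delta method for ratios and Clopper-Pearson for shares, and cover counting error only. The study's marker table for its own clusters was held in part and was not used. Clustering used Seurat 5.3.0 in R 4.3.3 (2000 variable genes, 18 components, resolution 0.9), while scanpy 1.11.5, scipy 1.17.1, pandas 2.3.3 and numpy 2.4.6 under Python 3.11.15 served for the rest. The call rule was tested on simulated data. Upstream sequences came from RefSeq (GRCm38.p6), where 46 of 65 higher genes and 5 of 6 score genes had an entry.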

Additional observations from a re-analysis of the deposited data

Results flagged for a closer look

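Among the named genes, 4 were called in opposite directions in the 2 plaque libraries, and this difference between libraries was not tested. *Gadd45b* had a log2 ratio of members to other contractile cells of 0.945 in the ApoE-/- and -0.799 in the Trf2T188A/ApoE-/- library, and *Nfkbia* of 0.862 and -1.011. *Col1a1* had -0.538 and 0.663, and *Serpina3n* -0.655 and 1.652, and 1 cell held 55.8% and another 53.6% of the respective sums of the Trf2T188A/ApoE-/- members. Without the highest member of each library *Col1a1* was -0.60 and -0.30, so its opposite direction rested on 1 cell, whereas the other 3 genes kept opposite directions.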

How the results depend on the processing

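Of 85 alternatives to the reported results, 56 stayed close (for counts, within a factor of 1.5) and 29 moved. A reversal could be recorded for the summed lists alone, where 0 were found, and not for counts or shares. With a pseudocount of 0.1 the genes higher and lower in members went from 65 and 60 to 394 and 288, those higher and lower in Trf2T188A/ApoE-/- members from 45 and 68 to 1578 and 1339, and 6 genes, not 0, were higher in both plaque members and ligated-artery cells. With the difference of mean log2 values 32 genes were higher in members, and 18 and 37 were higher and lower between genotypes. With 40 members the counts were 103 and 101, and 132 and 179 between genotypes. Thinning to 8000 UMIs gave 118 and 124 between genotypes. Genes lower in members numbered 39 with *Notch3* left out of the score, 35 with 100 members, and 39 with the cells of comparison taken from the cluster holding most members. Of 2 alternatives chosen after seeing the data, the first left out the highest member of each library. It gave 35 genes higher and 87 lower in members, where its construction lowers every ratio. Between genotypes, where a cell was left out on both sides of the ratio, it gave 16 higher and 74 lower. Using the members at or above the contractile median gave 38 genes higher in members and 69 between genotypes. For the other changes the cause was not tested. Counts alone hide changes of genes between genotypes: of the 45 higher genes 14 were shared with 100 members, 12 with the difference of mean log2 values and 25 with the members at or above the contractile median. The summed contractile list (log2 ratio -0.18) was -0.16 thinned, -0.15 from summed UMIs, -0.21 in the ApoE-/- and -0.15 in the Trf2T188A/ApoE-/- library. The summed immediate early list (0.71) was 0.67, 0.58, 0.92 and 0.49 in that order. The ApoE-/- share of members, 64.6%, and the summed Notch and elastic fibre lists stayed within their counting intervals. No paired analysis was possible because each genotype had 1 library. Depth limits genes with few UMIs, and fewer members than other cells widen every member value.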
